A study of Mus musculus with 23 samples.

Results

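The 8 genes described here encode enzymes that remove reactive oxygen species or supply glutathione to do so: Sod1, Sod2, Cat, Gclm, Gclc, Gpx1, Gpx4 and Hmox1. They were represented by all probe sets that the platform annotation maps to 1 of these genes, which gave 9 probe sets of the 12422 tested (8 of 8251 genes), with 1 for each gene except Cat, which has a pair. Signals were measured on 23 Affymetrix expression arrays of mouse nucleus accumbens, a ventral striatal region with dense dopamine input. Methamphetamine is a psychostimulant that drives dopamine out of its terminals. The mice belonged to short-term selected lines with C57BL/6J and DBA/2J founders, in which breeders were chosen for a strong (HMACT) or weak (LMACT) acute reaction to the drug.

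Each array held a 4-way tissue pool from 1 of 4 groups. The HMACT methamphetamine group had 6 arrays (mice given 2 mg/kg, mean age 77.25 to 150 days) and the HMACT saline group had 6 (77.25 to 154 days). The LMACT methamphetamine group had 5 arrays (2 mg/kg, 60 to 114.75 days) and the LMACT saline group had 6 (61.5 to 127.5 days). Tissue was taken 1 hour after the injection in every group. The labels name a single line for each direction of selection, so selection and chance divergence between the lines cannot be told apart.

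Superoxide dismutases turn superoxide into hydrogen peroxide, which catalase and the glutathione peroxidases then break down. The peroxidases spend glutathione, a tripeptide whose first and rate-limiting step of synthesis is made by glutamate-cysteine ligase, an enzyme of a catalytic subunit (Gclc) and a modifier subunit (Gclm). Several of these genes are known targets of the transcription factor NRF2, which binds antioxidant response elements in promoters. In the striatum, dopamine that leaves its vesicles is oxidized and yields hydrogen peroxide and quinones, and high doses of methamphetamine are known to damage dopamine terminals, in part through such oxidation.

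RefSeq windows of the 250 bases before the annotated start (GRCm38.p6, a C57BL/6J assembly) were found for 6 of the 8 genes. The windows of Sod1, Cat and Gclm are shown because these genes had the smallest unadjusted p-values in the comparison of the lines given below. Capitals mark a match, on the reverse strand in both cases, to TGACNNNGC, core letters of an antioxidant response element that were searched on both strands. The Sod1 window is chr16:90220512-90220761 on the plus strand, the Gclm window chr3:122245307-122245556 on the plus strand and the Cat window chr2:103485154-103485403 on the minus strand.
Sod1: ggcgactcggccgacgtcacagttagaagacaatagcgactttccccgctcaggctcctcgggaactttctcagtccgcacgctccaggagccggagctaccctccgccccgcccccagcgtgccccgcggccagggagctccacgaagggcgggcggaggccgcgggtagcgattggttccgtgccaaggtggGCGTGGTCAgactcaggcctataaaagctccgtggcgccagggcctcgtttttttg
Gclm: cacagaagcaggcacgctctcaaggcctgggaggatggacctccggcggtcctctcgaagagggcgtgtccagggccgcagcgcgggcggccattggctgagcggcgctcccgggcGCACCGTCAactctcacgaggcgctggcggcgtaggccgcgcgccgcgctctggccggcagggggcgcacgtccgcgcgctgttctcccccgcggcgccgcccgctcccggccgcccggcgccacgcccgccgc
Cat: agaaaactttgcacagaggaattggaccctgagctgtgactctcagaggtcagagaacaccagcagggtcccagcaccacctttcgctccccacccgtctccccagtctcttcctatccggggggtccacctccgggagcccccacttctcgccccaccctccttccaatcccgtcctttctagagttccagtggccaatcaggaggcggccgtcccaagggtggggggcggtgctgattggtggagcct

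The Gclm match lay 134 to 126 bases before the start and the Sod1 match 56 to 48 bases before it. Of 9 windows of these genes, 2 held the letters, and 3338 did among all 32851 windows listed (10.2%). No capitals in the Cat window says only that these letters are not there. Windows of Gclc and Hmox1 were not used here.

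The deposited values are log2 signals that ran from 2.23 to 16.4, and values under 2.3 were taken as the floor, which held 44.1% of all values. Of the 9 probe sets, 8 lay above the floor on all 23 arrays. The exception was the second probe set of Cat (161877_f_at), which stood at 2.23 on every array and carries no comparison. Over all probe sets, 50.7% had an identical value, to 9 decimals, on 12 or more arrays. Among the antioxidant probe sets this applied to Hmox1, with 1 value on 22 arrays, while the value that recurred most was shared by 9 arrays for Cat (160479_at), 7 for Gpx1, 6 for Gpx4 and 3 for Gclc. For Sod1, Sod2 and Gclm no value recurred. Levels of different probe sets are not set against each other, because each has its own probes.

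The labelled tissue was checked against genes of striatal projection neurons, of which 5 of 10 listed were on the array: Penk, Tac1, Pdyn and Drd2 each had a probe set above the floor on 23 arrays, while Rgs9 was at it. Of a list for neighbouring tissue, Gal and Oxt were at the floor, and the vasopressin gene Avp (mean 2.87) and the dopamine synthesis gene Th (mean 4.30) were above it on 23 arrays. Along the first axis of residual variation (60.6% of the residual variance over 6831 probe sets), 3 arrays stood apart: HMACT methamphetamine replicate 3, HMACT saline replicate 3 and LMACT methamphetamine replicate 4. A separate array, LMACT methamphetamine replicate 5, had a difference of 4.57 on the log2 scale between the 3′ and the 5′ control probe sets of actin and Gapdh, a measure of RNA integrity and labelling, against 1.07 to 2.80 on the other 22 arrays. Nothing in the labels ties pools to particular animals, and the p-values therefore cover only pool-to-pool spread.

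**Figure D1:**
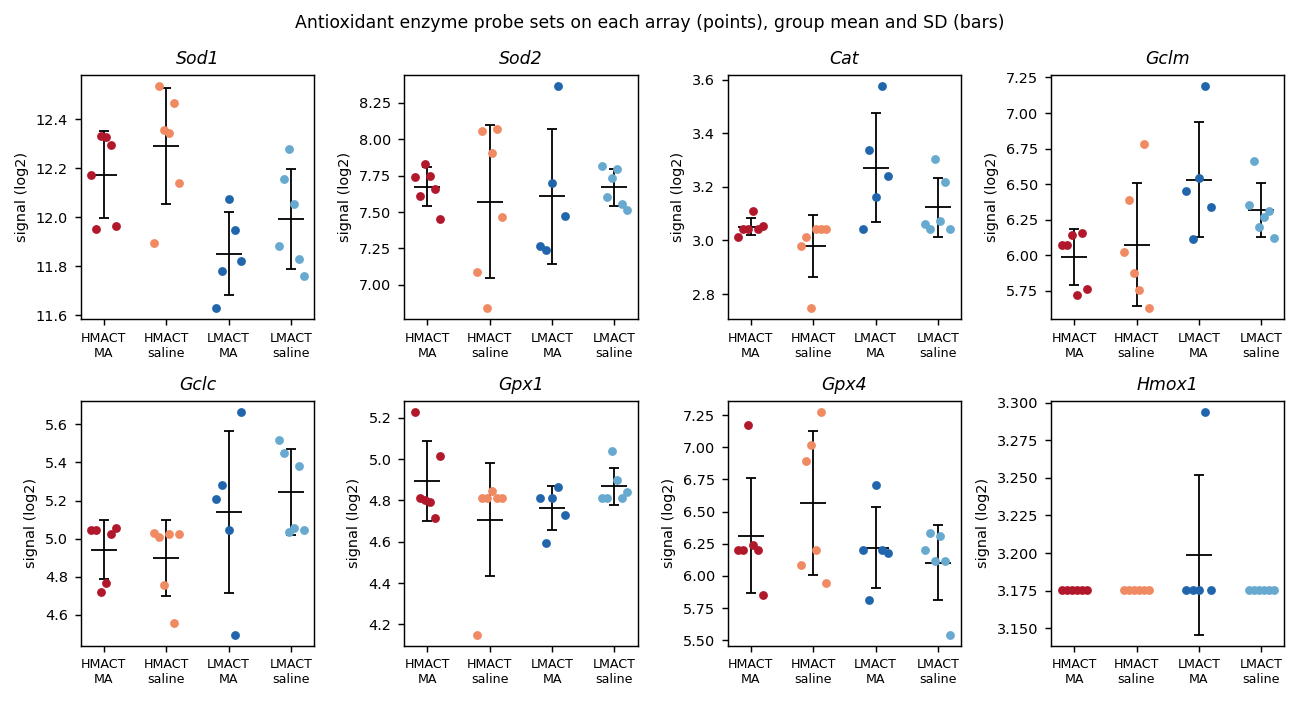
The log2 signal (vertical axis) of 8 antioxidant enzyme probe sets on each array (points), by group (horizontal axis), with the group mean and SD as bars; the vertical scale differs between panels. Sod1 points lie higher in HMACT than in LMACT groups with overlap, and Hmox1 shows 1 array off a shared value.

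The comparison of the lines asked which antioxidant genes differ at the level of mRNA between mice bred for a high and for a low methamphetamine response. As a mean of both injections, the cytosolic dismutase gene Sod1 was 1.24-fold higher in HMACT, and the glutathione synthesis genes Gclm and Gclc were 1.31-fold and 1.21-fold lower. The Cat signal was 1.14-fold lower in HMACT, and Sod2 and Gpx1 differed by 0.02 or less on the log2 scale. These are differences of probe set signal, and sequence differences between the lines at the probes were not checked. None of these passed: with limma and Benjamini-Hochberg adjustment over 12422 probe sets, 0 of the 9 members were called, against 17 probe sets (0.137%) in the whole table. At an unadjusted p under 0.05 there were 4 members, Sod1 on the higher side and Cat, Gclm and Gclc on the lower. The same unadjusted rule was met by 10.7% of all probe sets tested (4.27% higher, 6.46% lower) and by 16.0% of the 8298 that were not at the floor on every array.

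Sod1 encodes the copper and zinc superoxide dismutase of the cytosol. Its log2 signal ran from 11.95 to 12.33 in HMACT mice after methamphetamine (median 12.23) and from 11.90 to 12.54 after saline (median 12.35). The LMACT pools after methamphetamine had 11.63, 11.78, 12.08, 11.95 and 11.82, and those after saline ran from 11.76 to 12.28 (median 11.97). The highest of the 23 arrays was an HMACT saline pool and the lowest an LMACT methamphetamine pool, and the ranges of the lines overlapped. The mean was 12.23 ± 0.21 in HMACT (SD, n = 12) and 11.93 ± 0.19 in LMACT (SD, n = 11).

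The fitted Sod1 difference between the lines was 0.31 on the log2 scale (SE 0.0826, 95% interval 0.14 to 0.48), with a limma adjusted p of 0.186. It was similar under both injections, 0.32 (SE 0.120) after methamphetamine and 0.30 (SE 0.114) after saline, and the interaction was 0.03 (95% interval -0.32 to 0.37). Within the chip lots, of 15, 4 and 4 arrays, the difference was 0.27, 0.44 and 0.32. Age did not match between the lines, so the pools under 100 days were also set side by side: Sod1 averaged 12.26 ± 0.18 in HMACT (SD, n = 6) and 11.96 ± 0.20 in LMACT (SD, n = 9). With array weights the Sod1 difference was 0.40 (limma adjusted p = 0.00820), with 1014 of all probe sets called in place of 17. With the residual axis as a covariate the Sod1 adjusted p was 0.00881, with 1539 called. That axis was built from deviations from the group means, so it cannot move the difference and takes away only spread within groups. It came from these same arrays, so a smaller error was partly built in. The adjusted p with the axis is therefore no separate support. The array weights were also estimated from these arrays, so the adjusted p with them is none either.

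Sod2 encodes the manganese superoxide dismutase of mitochondria. Its signal ran from 7.45 to 7.83 in HMACT after methamphetamine (median 7.70) and from 6.84 to 8.07 after saline (median 7.69). In LMACT it was 7.27, 7.24, 7.70, 8.37 and 7.47 after methamphetamine and 7.52 to 7.82 after saline (median 7.67). The HMACT saline arrays spread widely and enclosed the other groups except for the 8.37 of LMACT methamphetamine replicate 5. The line difference was -0.02 (95% interval -0.33 to 0.29, limma adjusted p = 1.0), and its sign turned under quantile normalization (0.01) and in other settings.

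Cat encodes catalase, a peroxisomal enzyme that splits hydrogen peroxide. Its measurable probe set was dim, with 3.01 to 3.11 in HMACT after methamphetamine (median 3.04) and 2.75 to 3.04 after saline (median 3.03). In LMACT it had 3.04, 3.34, 3.16, 3.58 and 3.24 after methamphetamine and 3.04 to 3.30 after saline (median 3.07). The recurring value of 3.04 was the highest value of the HMACT saline group and the lowest of both LMACT groups. The line difference was -0.18 (SE 0.0519, 95% interval -0.29 to -0.07, limma adjusted p = 0.212). By chip lot it was -0.28, 0.03 and -0.07, so the direction did not hold in the second lot, and the mean of both Cat probe sets gave -0.09. With mean age as a covariate the Cat line difference was -0.13. Among pools under 100 days Cat averaged 3.06 ± 0.03 in HMACT (SD, n = 6) and 3.20 ± 0.18 in LMACT (SD, n = 9).

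Gclm encodes the modifier subunit of glutamate-cysteine ligase, which raises the activity of the catalytic subunit. Its signal ran from 5.72 to 6.16 in HMACT after methamphetamine (median 6.07) and from 5.63 to 6.78 after saline (median 5.95). In LMACT it was 6.45, 6.12, 6.55, 7.19 and 6.34 after methamphetamine and 6.12 to 6.67 after saline (median 6.29). After methamphetamine a single LMACT pool lay within the HMACT range, and after saline the ranges overlapped. The mean over injections was 6.03 ± 0.32 in HMACT (SD, n = 12) and 6.42 ± 0.31 in LMACT (SD, n = 11).

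The Gclm line difference of -0.39 (SE 0.133, 95% interval -0.67 to -0.11) had a limma adjusted p of 0.330. It was -0.54 (SE 0.193) after methamphetamine and -0.24 (SE 0.184) after saline, with an interaction of -0.30 (95% interval -0.85 to 0.26). The highest Gclm value belonged to LMACT methamphetamine replicate 5, the array with the 3′ to 5′ control difference of 4.57, and without that array the line difference was -0.31. The chip lots gave -0.40, -0.82 and 0.06, so the third lot did not share the direction. Among pools under 100 days Gclm averaged 5.97 ± 0.44 in HMACT (SD, n = 6) and 6.46 ± 0.32 in LMACT (SD, n = 9).

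Gclc encodes the catalytic subunit, which joins glutamate to cysteine. It had 4.72 to 5.06 in HMACT after methamphetamine (median 5.03) and 4.56 to 5.03 after saline (median 5.02). In LMACT it had 5.21, 5.28, 5.05, 4.50 and 5.67 after methamphetamine and 5.03 to 5.52 after saline (median 5.22). After saline the highest HMACT value was 5.029 and the lowest LMACT value 5.035, close to a value of 5.043 that recurred in both lines. How many of all probe sets part the lines in this way was not counted, so whether this gap is unusual is not known. A different rule, an unadjusted p under 0.05, was met after saline by Gclc and by 12.6% of all probe sets. After methamphetamine the ranges overlapped, and LMACT replicate 5 was the lowest of all 23 arrays. The line difference was -0.27 (SE 0.108, 95% interval -0.50 to -0.05, limma adjusted p = 0.393), and -0.35 without LMACT methamphetamine replicate 5. In the chip lots it was -0.24, -0.43 and -0.26. Among pools under 100 days Gclc averaged 4.91 ± 0.20 in HMACT (SD, n = 6) and 5.16 ± 0.31 in LMACT (SD, n = 9).

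Gpx1 encodes a cytosolic and mitochondrial glutathione peroxidase. It had 4.71 to 5.23 in HMACT after methamphetamine and 4.15 to 4.85 after saline, with a median of 4.81 in both groups. In LMACT it had 4.81, 4.59, 4.81, 4.86 and 4.73 after methamphetamine and 4.81 to 5.04 after saline (median 4.83). The recurring value of 4.81 lay inside the range of every group. The line difference was -0.02 (95% interval -0.17 to 0.14), and the interaction of line and methamphetamine was 0.29 (SE 0.152, 95% interval -0.03 to 0.61, limma adjusted p = 0.884). This interaction was 0.18 without HMACT saline replicate 1 and 0.12 among pools under 100 days. The line difference of Gpx1 changed sign under quantile normalization (0.04).

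Gpx4 encodes the glutathione peroxidase that reduces lipid hydroperoxides in membranes and guards cells against ferroptosis. It ran from 5.85 to 7.17 in HMACT after methamphetamine (median 6.20) and from 5.94 to 7.27 after saline (median 6.55). In LMACT it was 6.20, 5.81, 6.71, 6.20 and 6.18 after methamphetamine and 5.55 to 6.33 after saline (median 6.16). Gpx4 moved with the residual axis: the 4 arrays with the highest axis scores had 6.71 to 7.27 (median 7.10), against 5.55 to 6.89 (median 6.20) on the other 19, and the axis's part in the line difference beyond the values below was not tested. The line difference was 0.28 (SE 0.175, 95% interval -0.09 to 0.64, limma adjusted p = 0.589). It was 0.21 without the 3 arrays that stand apart, 0.11 when HMACT saline replicate 5 was left out too, and 0.06 among pools under 100 days.

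By injection, the Gpx4 difference between the lines was 0.09 (SE 0.253) after methamphetamine and 0.47 (SE 0.241, limma adjusted p = 0.420) after saline. The Gpx4 difference after saline was 0.38 without the 3 arrays that stand apart, 0.18 when HMACT saline replicate 5 was left out too, and 0.26 among pools under 100 days. With the axis score as a covariate, Gpx4 was 1 of 1847 probe sets called after saline (limma adjusted p = 0.031). The covariate leaves the difference as it is and narrows its error. It came from the residual spread of the same arrays, so this call is no separate support. In the chip lots the mean line difference of Gpx4 was 0.39, -0.05 and 0.23.

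Hmox1 encodes the inducible heme oxygenase, which degrades heme and is a widely used marker of oxidative stress. Its probe set had 3.18 on 22 arrays, identical to 9 decimals, in all groups. The exception was LMACT methamphetamine replicate 5, with 3.29. A difference of groups would rest on that array, so none is given for Hmox1.

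**Figure D2:**
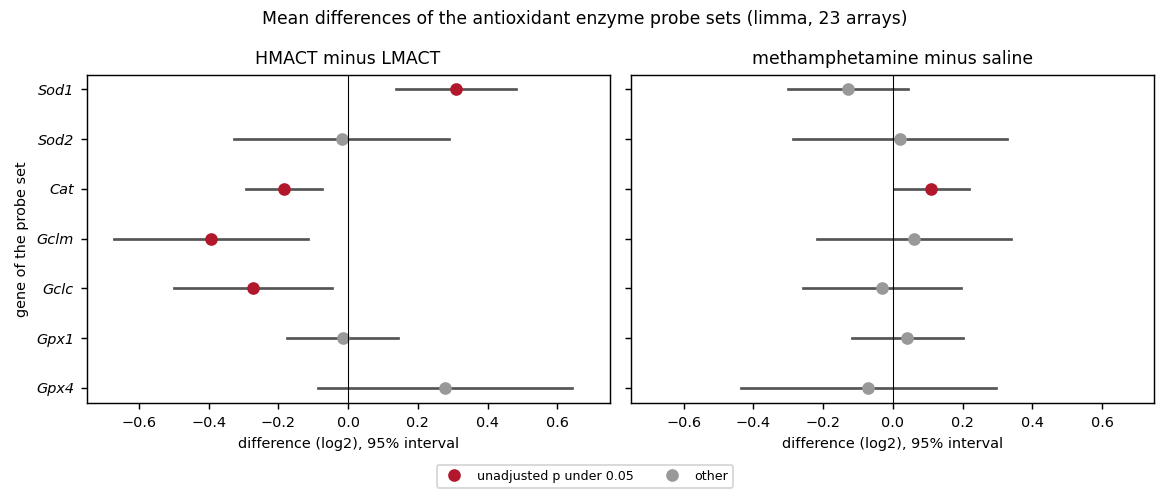
The fitted log2 difference (horizontal axis) of 7 probe sets (vertical axis) for HMACT minus LMACT (left) and methamphetamine minus saline (right), with 95% intervals as lines; Hmox1 is left out. Sod1 lies at 0.31 and Gclm at -0.39 on the left, and on the right the only interval clear of 0 is that of Cat, at 0.11.

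The injections were compared to ask which antioxidant genes differ 1 hour after methamphetamine. All 7 mean differences lay between -0.13 and 0.11 on the log2 scale, and 0 of the 9 members passed in limma with Benjamini-Hochberg adjustment, against 2 probe sets (0.0161%) in the whole table. At an unadjusted p under 0.05 there was 1 member, Cat, against 1.25% of all probe sets tested. The drug effect within each line also called 0 members, against 1 probe set (0.00805%) in HMACT and 0 (0.0%) in LMACT. At an unadjusted p under 0.05, 0 members were found in either line, against 1.45% of all probe sets in HMACT and 2.98% in LMACT.

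Cat averaged 3.05 ± 0.03 after methamphetamine and 2.98 ± 0.12 after saline in HMACT (SD, n = 6 each). In LMACT it averaged 3.27 ± 0.20 after methamphetamine (SD, n = 5) and 3.12 ± 0.11 after saline (SD, n = 6). The groups overlapped in both lines. The mean effect was 0.11 (SE 0.0519, 95% interval 0.00 to 0.22, limma adjusted p = 1.0), and 0.07 without LMACT methamphetamine replicate 5, whose 3.58 was the highest Cat value. By chip lot the difference was 0.16, 0.03 and 0.04.

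Sod1 had a mean methamphetamine effect of -0.13 (SE 0.0826, 95% interval -0.30 to 0.04), with -0.12 in HMACT and -0.14 in LMACT. In the chip lots it was -0.11, -0.27 and -0.07. The interval leaves room for a Sod1 mRNA lower by 0.30 or higher by 0.04 on the log2 scale. For Sod2 the effect was 0.02 (95% interval -0.29 to 0.33), and it was -0.07 without LMACT methamphetamine replicate 5, -0.03 without HMACT saline replicate 1 and -0.05 without HMACT saline replicate 3.

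Neither ligase subunit passed. Gclm had a mean effect of 0.06 (95% interval -0.22 to 0.34), made of -0.09 in HMACT and 0.21 in LMACT, and -0.02 without LMACT methamphetamine replicate 5. Gclc had -0.03 (95% interval -0.26 to 0.19), with 0.04 in HMACT and -0.11 in LMACT. Both signs thus turned on leaving out that array, since Gclc then had 0.05.

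For Gpx1 the effect was 0.04 (95% interval -0.12 to 0.20), with 0.19 in HMACT (SE 0.105) and -0.11 in LMACT (SE 0.110). The HMACT value includes the saline replicate 1 at 4.15, far below the other saline pools at 4.81 to 4.85, and without it the mean effect of Gpx1 was -0.02. For Gpx4 the effect was -0.07 (95% interval -0.44 to 0.29), with -0.26 in HMACT and 0.12 in LMACT. Leaving out 1 array moved it between -0.16 (without HMACT methamphetamine replicate 3) and -0.00015 (without HMACT saline replicate 5). The interaction of line and drug called 0 members and 0 probe sets (0.0%) in the whole table, and at an unadjusted p under 0.05 it had 0 members against 2.17% of all probe sets.

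By injection, the line comparison called 0 members after methamphetamine, against 0 probe sets (0.0%) in the table, and 0 after saline, against 1 (0.00805%). At an unadjusted p under 0.05 the members were Sod1, Cat and Gclm after methamphetamine, against 4.07% of all probe sets. After saline they were Sod1 and Gclc, against 12.6%. Sod1 was thus the single member in both of these counts, and the interaction intervals of all 7 members included 0.

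**Figure D3:**
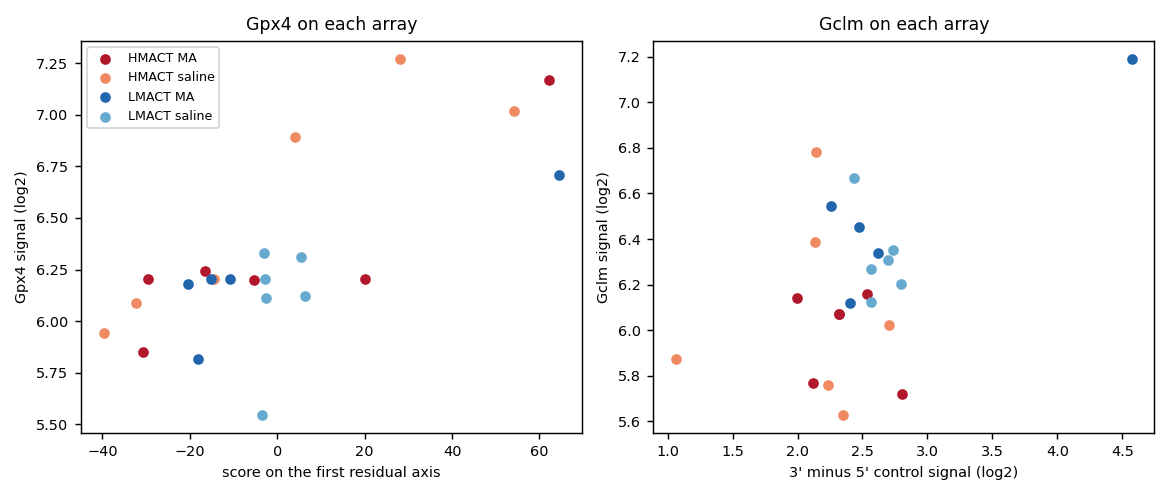
The Gpx4 log2 signal against the score on the first residual axis (left) and the Gclm log2 signal against the 3′ minus 5′ control signal (right), 1 point per array, colored by group. The arrays with the highest scores have Gpx4 values of 6.71 to 7.27, and the array at 4.57 on the right has the highest Gclm value, 7.19.

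Other antioxidant genes were taken from a list by role: 52 of 69 were on the array, with 73 probe sets, of which 59 were not at the floor on every array. In the line comparison 0 of them passed. The median line difference of these 59 was 0.07, with 45 positive and 14 negative. It was 0.01 over all 8298 probe sets not at the floor on every array (4328 positive, 3968 negative). The unadjusted p was under 0.05 for 10 of the 73, against 10.7% of all probe sets tested and 16.0% of those not at the floor on every array. By role, 18 of 22 measured glutathione transferase probe sets were positive (median 0.06), 9 of 11 of the thioredoxin, glutaredoxin and peroxiredoxin set (median 0.16) and 3 of 3 metallothionein probe sets (median 0.33). The NRF2 regulators and NADPH-linked genes had 4 positive and 7 negative, with a median of -0.06.

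The smallest p-values in the line comparison belonged to Msrb1, Txn1 and Gsta4. Msrb1, a selenoprotein that repairs oxidized methionine, had a line difference of 0.56 (SE 0.187, limma adjusted p = 0.320). It averaged 7.22 ± 0.42 and 7.51 ± 0.63 in HMACT after methamphetamine and saline (SD, n = 6 each), against 6.78 ± 0.39 (SD, n = 5) and 6.84 ± 0.27 (SD, n = 6) in LMACT. Txn1, thioredoxin, had -0.65 (SE 0.226, limma adjusted p = 0.340). Gsta4, a glutathione transferase that acts on the lipid peroxidation product hydroxynonenal, had 0.27 (SE 0.0980, limma adjusted p = 0.368), and probes of this family may bind paralogs.

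In the comparison of injections, 0 of the 73 probe sets passed, against 2 in the whole table (0.0161%), and 0 had an unadjusted p under 0.05, against 1.25%. There were 24 positive and 35 negative differences with a median of -0.01, against 3974 positive and 4318 negative with a median of -0.003 over all probe sets tested. The smallest p-values were those of Prdx3, the mitochondrial peroxiredoxin, with an effect of -0.18 (SE 0.0954, limma adjusted p = 1.0), Txnrd3, which lay under the floor value on every array and has no usable difference, and Gstm5, with -0.26 (SE 0.178). The Prdx3 effect was -0.10 without LMACT methamphetamine replicate 5, and the Gstm5 effect was -0.17 without HMACT saline replicate 3.

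Markers of other cell types moved with the lines in part. The oligodendrocyte list had 13 probe sets from 7 genes. Of the 11 measured, 8 had a negative line difference and the median was -0.24. An unadjusted p under 0.05 was found for 4 of the 13, and 1 passed, against 0.137% of all probe sets tested. It was a probe set of Mobp, a myelin protein gene, with -0.50 (SE 0.0934, limma adjusted p = 0.031). The mean of all Mobp probe sets gave -0.35 (limma adjusted p = 0.239). Mobp was chosen after its values were seen, and it did not pass (adjusted p 0.0505 to 0.0677) in 10 of 23 fits that left out 1 array. The summed oligodendrocyte signal was 12.2 to 13.3 in HMACT and 13.0 to 13.7 in LMACT on the log2 scale, with Cnp at the floor. Astrocyte markers summed to 13.3 to 13.8 in HMACT and 13.5 to 14.1 in LMACT. Of 11 measured astrocyte probe sets, 8 had a negative line difference (median -0.07), 0 passed and 3 had an unadjusted p under 0.05. Microglial markers summed to 10.3 to 11.9 in HMACT (median 10.77) and 10.6 to 11.2 in LMACT (median 10.95), with Aif1 and Cx3cr1 at the floor. Of 8 measured microglial probe sets, 6 had a positive line difference (median 0.29) and 0 passed, with 1 at an unadjusted p under 0.05. The medians of the summed microglial signal had the opposite order, lower in HMACT. An unadjusted p under 0.05 was found for 10.7% of all probe sets tested and for 16.0% of those not at the floor on every array. Blood markers, measured by 2 probe sets that were both positive (median 0.31, 0 passing and 0 at an unadjusted p under 0.05), summed to 7.25 to 11.3 in HMACT and 7.0 to 8.98 in LMACT. The part of these markers in the Sod1, Cat, Gclm and Gclc values was not tested, and in tissue pools fewer cells of a type and less RNA per cell cannot be told apart.

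The 3′ to 5′ control difference was higher on average in LMACT, with overlap (1.07 to 2.80 in HMACT, 2.26 to 4.57 in LMACT). It averaged 2.23 ± 0.44 in HMACT (SD, n = 12) and 2.74 ± 0.63 in LMACT (SD, n = 11). The LMACT mean was 2.55 ± 0.16 without methamphetamine replicate 5 (SD, n = 10). The lowest HMACT array, saline replicate 3 at 1.07, was kept in the HMACT mean. The medians were 2.28 in HMACT and 2.57 in LMACT. The part of this control difference in the line differences was not tested.

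The genes whose signal followed each member most closely over the 23 arrays are given as a description. Pearson's r was 0.85 for Sod1 with the calcium-binding protein gene S100a1 and 0.84 with the mitochondrial import gene Timm13. Gclc was closest to Mal, a myelin gene on the oligodendrocyte list (0.83), and to the phosphatase gene Ppp1cc (0.82). Gclm was closest to Ubfd1 (0.81) and Wwc1 (0.80), and Cat to Ubap2l (0.85) and Dyrk1a (0.80).

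Gpx4 had the closest partners, the guanylate kinase gene Guk1 at 0.94 and the sterol synthesis gene Mvd at 0.94. Sod2 followed Fam32a (0.89) and Cmc2 (0.88), and Gpx1 followed Trpm7 (0.81) and Cd63 (0.75). These are the highest of 6194 probe sets searched for each member, and the arrays share the groups, the residual axis and the RNA quality given above, so no p is given. The value of 1.0 for Hmox1 with Mrpl42 and C1qbp rests on a single array.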

How the data were processed

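RNA of 23 pools, biotin-labelled per the labels' protocols, was hybridised to 1 Affymetrix array each. The deposited log2 signals, 1 per probe set and array, were used as given. Array medians were 2.51 to 2.63, near the floor of 2.3, and say little about brighter values. Quantile normalization still changed the values, moving the Sod1 line difference from 0.31 to 0.27. The log2 scale was inferred from the values. Which normalization, background correction and summary were used is not given in the sources used here; per the submitters' processing notes, the tool R 2.7.1 was used, in a role they do not give. The arrays' number and the floor of 2.3 limit the precision.

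Of 12488 probe sets, 66 controls were left out; 10833 of the other 12422 have 1 gene in the platform annotation, 396 several and 1193 none, and 10817 took a current symbol through the RefSeq table. The 253 pairs of arrays all differed (smallest mean absolute difference 0.0736). Comparisons used limma 3.58.1 in R 4.3.3 (lmFit, contrasts.fit and eBayes, checked on simulated data), with 1 fit of 4 group means, two-sided, Benjamini-Hochberg over 12422 probe sets and a threshold of 0.05, for 7 comparisons. The residual axis is the first principal component of deviations from group means, and an array stood apart where its score exceeded the median by over 3.5 median absolute deviations. A chip lot of 1 array was counted with the lot whose number differs in 1 digit.

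Named were all members, the 3 other antioxidant genes with the smallest p-values in each mean comparison, and the 2 genes most like each member among probe sets above the floor on most arrays. Members, lists and alternatives were chosen with earlier results of these data known. Alternatives were quantile normalization, median centring, array weights, the residual axis, filters on dim or repeated values, 1 value per gene, a robust eBayes with a trend, mean age, chip lot, a block on replicate number, and leaving out each array. The residual axis, the filters and the robust eBayes leave a probe set's difference as it is. So does taking the probe set of highest mean per gene, for the members. A direction kept under these settings was fixed beforehand and is no test of it. Replicate numbers are shared between groups. Within a line, all 11 same-numbered pairs of a methamphetamine and a saline pool share a chip lot as counted above, and their mean ages are equal in 3 and differ by up to 12.75 days. No label says that a number marks a batch, and the pairs' deviations correlated at -0.61 to 0.87, so they were not taken as pairs.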

Additional observations from a re-analysis of the deposited data

Results flagged for a closer look

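In 5 of 29 groups of 5 or 6 arrays tested, the highest or lowest array lay apart from its group. The rule is set for about 1 in 20 groups by chance where values do not recur. All 5 groups belong to probe sets with recurring values (Cat, Gpx1, Gpx4 and Hmox1), so that rate does not hold for them. Gpx4 was 7.17 on HMACT methamphetamine replicate 3, against 5.85 to 6.24 on the other arrays of its group, and this array is 1 of the 3 that stand apart on the residual axis. Gpx4 was 5.55 on LMACT saline replicate 6, against 6.11 to 6.33. Gpx1 was 4.15 on HMACT saline replicate 1, against 4.81 to 4.85. Cat was 2.75 on HMACT saline replicate 3, another array that stands apart, against 2.98 to 3.04. Hmox1 was 3.29 on LMACT methamphetamine replicate 5, against 3.18 on all others of its group, and on this array the 3′ minus 5′ control difference was 4.57.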

How the results depend on the processing

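Over 19 alternative settings and 23 fits without 1 array each, not all for every value, 920 differences were recomputed. Of these, 858 kept direction and side of the threshold, 35 turned sign and 12 newly passed. Some of the 858 could not turn sign, as given above. All lost calls were of Mobp. The line differences of Sod1, Cat, Gclm and Gclc kept their direction in these settings, at 0.27 to 0.40, -0.28 to -0.09, -0.50 to -0.25 and -0.38 to -0.20. Without 1 array they were 0.28 to 0.35, -0.21 to -0.14, -0.46 to -0.31 and -0.35 to -0.21. The smaller chip lots were not among the settings, and there Cat was 0.03 in the second lot and Gclm 0.06 in the third. No member passed in any fit without 1 array. With array weights 3 members passed in the mean line difference (Sod1 0.40, Cat -0.17, Gclc -0.38), among 1014 of 12422 probe sets. With these weights 1 passed after saline (Sod1, among 303 probe sets) and 1 after methamphetamine (Cat, among 192). With the axis as a covariate 2 passed in the mean (Sod1 0.31, Cat -0.18) and 1 after saline (Gpx4 0.47, among 1847 probe sets). The axis moves only the error. Msrb1, Txn1 and Gsta4 passed in the line comparison under both settings and no other, with 0.21 to 0.76, -0.997 to -0.20 and 0.15 to 0.32 over the settings. The effect of methamphetamine over the settings was -0.21 to -0.0395 for Prdx3 and -0.36 to -0.0402 for Gstm5. In the mean line difference, array weights and the axis raised the calls over all probe sets to 1014 and 1539, against 17 (9 higher, 8 lower). Quantile normalization gave 30 (19 higher, 11 lower). There were 86 without the 3 arrays that stand apart, 55 without LMACT methamphetamine replicate 4 and 7 without LMACT saline replicate 1. With mean age as a covariate 2 were called, and 468 in place of 1334 had an unadjusted p under 0.05. Among pools under 100 days 0 were called in limma (383 at an unadjusted p under 0.05). The cause was not tested.

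Sign changes were these. For the methamphetamine effect, array weights gave Sod2 -0.24, Gclm -0.0958, Gclc 0.0859 and Gpx1 -0.0310, and pools under 100 days Sod2 -0.13 and Gpx1 -0.0432. Sod2 was -0.0805 when the arrays that stand apart were left out and -0.0362 when the 4 arrays with the highest axis scores were, a setting chosen after seeing the data. Without 1 array the effect ran from -0.0748 to 0.0701 for Sod2, -0.0218 to 0.13 for Gclm, -0.0978 to 0.0482 for Gclc and -0.0152 to 0.0613 for Gpx1. For the line difference, Sod2 was 0.0131 under quantile normalization, 0.23 with array weights, 0.10 with mean age as a covariate, 0.0433 under 100 days, 0.0505 when the arrays that stand apart were left out and 0.00626 when the 4 arrays were. Gpx1 was 0.0447 under quantile normalization, 0.0694 with array weights, 0.0162 with mean age, 0.00893 under 100 days and 0.00234 in the largest chip lot. Without 1 array the range was -0.0680 to 0.0768 for Sod2 and -0.0489 to 0.0401 for Gpx1. The Gpx4 difference after methamphetamine was -0.13 under 100 days and -0.0818 to 0.21 without 1 array. The cause was not tested.

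With the replicate number as a random block, 0 members passed, the Sod1 line difference was 0.31 (limma adjusted p = 0.504) and calls over all probe sets were 2; 7 of 22 arrays correlated best with their own number. With the number as a fixed block within each line, the Cat methamphetamine effect was 0.10 (limma adjusted p = 1.0); over 11 same-numbered pairs it was positive in 9 and 0 in 2, given as a description. The Mobp line difference did not pass with mean age as a covariate, within the largest lot, under 100 days, with the block, as the mean of its probe sets, or without 1 of 10 arrays: HMACT methamphetamine replicate 3 or 4, HMACT saline replicate 5, LMACT methamphetamine replicate 2, 3, 5 or 6, or LMACT saline replicate 1, 2 or 4 (adjusted p 0.0505 to 0.0677).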
